A study of Mus musculus with 6 samples.

Results

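The endothelin system was examined through 6 genes in bulk RNA-Seq counts of the mouse cardiac outflow tract (OFT), the vessel-like segment through which blood leaves the embryonic heart. They are the ligand genes *Edn1* and *Edn3*, the receptor genes *Ednra* and *Ednrb*, and the converting enzyme genes *Ece1* and *Ece2*. Members were taken by symbol through the Ensembl identifiers of the count table, and all 6 were found among its 28777 genes. The tissue came from E13.5 embryos on a C57/BL6J background, cut below the conal cushions. The 3 libraries labelled wildtype were from littermates with both *Notch1* and *Nos3* intact, and the 3 labelled mutant carried the label *Notch1* heterozygous with *Nos3* null. Both alleles are knockouts of the whole animal, not of a chosen cell type. Each library pooled 3 OFTs, 18 in all, so a library is an average over embryos. *Nos3* was at 20.4 to 22.1 CPM under the mutant label and 31.8 to 48.1 CPM under the wildtype label. *Notch1* was at 139 to 161 CPM under the mutant label and 74.3 to 88.2 CPM under the wildtype label, so it was higher in the libraries labelled as heterozygous for its loss (log2 fold change 0.89, adjusted p = 0.0313 from edgeR's test). Which exons the knockout alleles remove is not given in the sources used here. Groups are therefore named by their labels, and every direction below is that of the labels.

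Endothelins are short peptides that act on neighbouring cells. They are made as longer precursors, trimmed by furin-like proteases, and cut to the active form by the membrane metalloproteases Ece1 and Ece2. The active peptides bind a pair of G protein-coupled receptors. Ednra prefers endothelin-1 and is known from smooth muscle and from neural crest cells that shape the face and the great arteries. Ednrb binds the endothelins about equally well and is known from endothelium and from neural crest cells that become melanocytes and enteric neurons. *Edn1* and *Ednra* are required in the mouse for normal great arteries, and *Edn3* and *Ednrb* for pigment and gut innervation.

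None of the 6 genes was called between the labels in the fit without a replicate block. A gene counted as called when its p from the quasi-likelihood test of edgeR, adjusted by Benjamini-Hochberg over 28157 genes, did not exceed 0.05. That test called 0 of the 6 genes and 0.0213% of all genes (0.0178% higher and 0.00355% lower under the mutant label). The unadjusted p was below 0.05 for 2 of the 6, *Ednrb* (lower) and *Ece2* (higher), and for 16.1% of all genes (8.23% higher and 7.83% lower). The Wald test of DESeq2 called 0 of the 6, beside 4.21% of all genes with an adjusted p, and limma-voom called 0, beside 0.0178%. Alternative scalings and filters called 0 of the 6 and few genes in all, 0.0213% with DESeq2's size factors, 0.0249% with library size only, 0.0208% with no filter and 0.0247% with filterByExpr. A correction for GC content and gene length called 0 of the 6 and 0.0142% of all genes. Calls among the 6 were made in 3 alternative fits, each of which also called many more genes. The block on the replicate numbers of the titles called 1 (*Ednrb*), that block with the correction called 2 (*Ednrb* and *Ece1*), and leaving out wildtype replicate 1 called 1 (*Ece1*). The libraries of the labels overlapped for all 6 genes, whereas they did not overlap for 19.6% of all genes. The median log2 fold change of the 6 genes was −0.21, with 5 negative and 1 positive, and the median of all genes was 0.011. Libraries held 34729103 to 44387490 counts. A floor of 3 counts corresponded to 0.0675 to 0.0924 CPM, and floors and intervals of counts cover counting error only. CPM is the usual count relative to library size, here scaled by the TMM method of edgeR. Nothing in the labels says that the pools were of separate litters, so p-values measure the spread between pools. In bulk tissue, fewer cells of a type and less RNA per cell cannot be told apart.

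**Figure D1:**
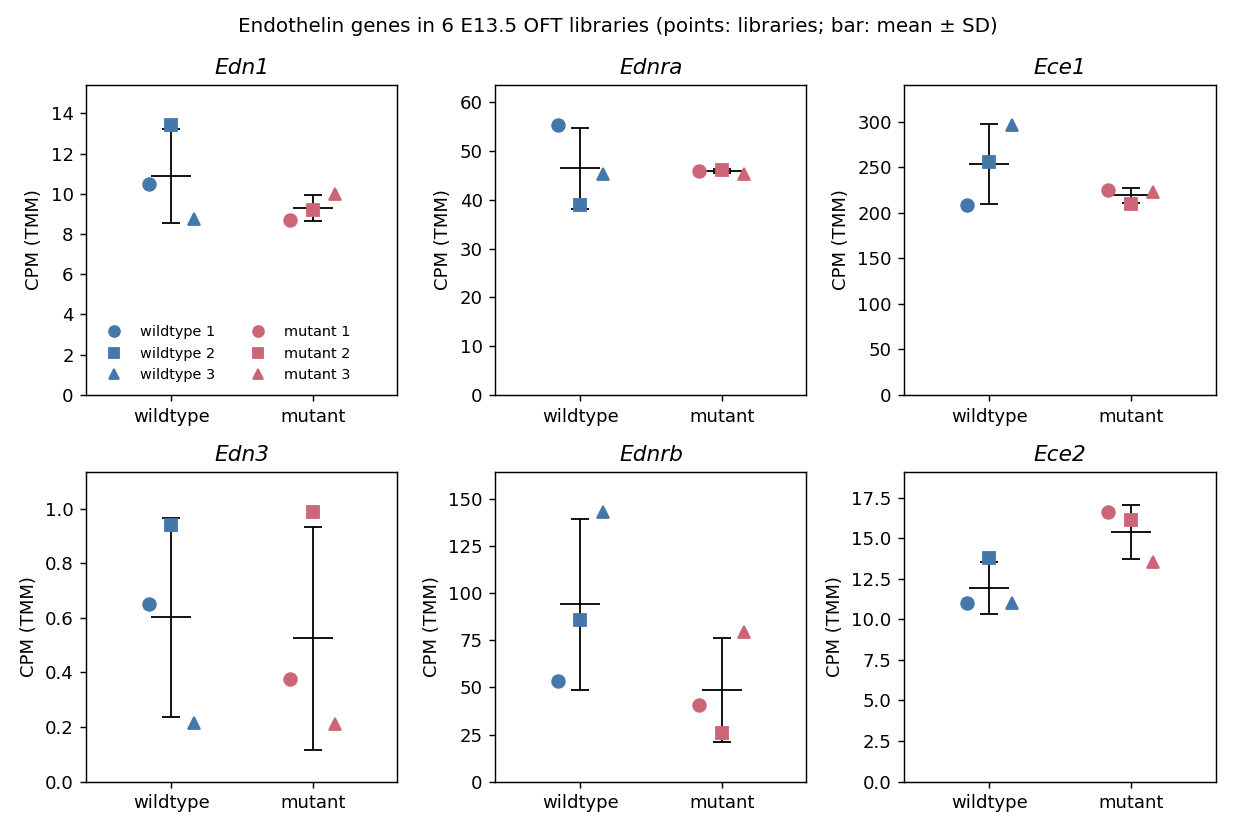
Each panel plots the CPM (TMM scaling, axis from 0) of 1 endothelin gene in the 3 libraries of each label, with symbols for the numbers of the titles and a bar for mean ± SD. The libraries of the labels overlap in every panel, and *Ednrb* spans 25.8 to 143 CPM while *Ednra* stays between 38.9 and 55.3 CPM.

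*Edn1* (ENSMUSG00000021367) encodes the precursor of endothelin-1 and lies on chromosome 13 of mm10 from 42301476 to 42307990, on the plus strand. In wildtype replicates 1, 2 and 3 it had 10.5, 13.4 and 8.75 CPM. In mutant replicates 1, 2 and 3 it had 8.72, 9.20 and 10 CPM. The mutant-labelled libraries lay close together, the lowest of them next to wildtype replicate 3, and the highest value was in wildtype replicate 2. Means were 10.9 ± 2.37 CPM (SD, n = 3) under the wildtype label and 9.31 ± 0.646 CPM (SD, n = 3) under the mutant label. The log2 fold change of *Edn1* was −0.23 (standard error 0.16, 95% interval −0.59 to 0.14, adjusted p = 0.52 from edgeR's test). A two-sided exact permutation test gave p = 0.4, where 3 libraries against 3 cannot give less than 0.1. Without wildtype replicate 2 the log2 fold change was −0.05. An antisense gene, Gm47118, shares 35 bases with *Edn1* exons and had 24 counts over the 6 libraries.

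The *Edn1* start region was searched because GATA factors and AP-1 are textbook activators of this gene. In the RefSeq window of the gene (GRCm38.p6, 250 bases before to 50 after the start), the letters AGATAA and TGACTAA, searched on both strands, were each found in a single place. Both lie just after the annotated start, inside exon 1. Capitals mark the matching letters in the stretches that hold them, chr13:42301476-42301497 and chr13:42301504-42301525, plus strand.
Edn1 GATA match: gccgggtcTTATCTctggctgc
Edn1 AP-1 match: cctgtgggTGACTAAtcacaca
Of 32851 windows of all genes, 11.2% held AGATAA and 2.35% held TGACTAA on either strand. Among the 9 windows of the 6 endothelin genes, each was found in *Edn1* alone. These matches are letters in a window and were not tested for binding.

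*Edn3* (ENSMUSG00000027524) encodes the precursor of endothelin-3, the main ligand of Ednrb in neural crest, and lies on chromosome 2 from 174760619 to 174784042, on the plus strand. It was barely detected. Its counts were 29, 39 and 7 in wildtype replicates 1, 2 and 3, against 15, 37 and 8 in mutant replicates 1, 2 and 3. Within each label 1 library was several times above another, by 4.36 times under the wildtype label and 4.65 times under the mutant label. The exact Poisson intervals (95%) of 7 and 39 counts were 2.81 to 14.4 and 27.7 to 53.3, so libraries of the same label differed beyond counting error. Means were 0.603 ± 0.364 CPM (SD, n = 3) under the wildtype label and 0.525 ± 0.409 CPM (SD, n = 3) under the mutant label. For *Edn3* the log2 fold change was −0.22 (standard error 0.63, 95% interval −1.60 to 1.16, adjusted p = 0.898 from edgeR's test), and an interval this wide takes in large changes in either direction. The value turned to 0.24 when wildtype replicate 2 was left out and to 0.15 when mutant replicate 3 was.

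*Ednra* (ENSMUSG00000031616), the endothelin-1 receptor, lies on chromosome 8 from 77663031 to 77724464, on the minus strand. In wildtype replicates 1, 2 and 3 it had 55.3, 38.9 and 45.3 CPM. In mutant replicates 1, 2 and 3 it had 46.0, 46.2 and 45.4 CPM. The 3 libraries labelled mutant were nearly equal and sat at the middle of the wildtype range, whose ends were replicates 1 and 2. Means were 46.5 ± 8.26 CPM (SD, n = 3) and 45.9 ± 0.410 CPM (SD, n = 3) under the wildtype and mutant labels. For *Ednra* edgeR gave a log2 fold change of −0.02 with a standard error of 0.12 (adjusted p = 0.958). Its 95% interval of −0.29 to 0.25 was the narrowest of the 6 genes. The sign of so small a value turned with the setting, to 0.08 when scaling used total counts alone and to 0.13 without wildtype replicate 1. The opposite-strand transcript 4933431K23Rik shares 91 bases with *Ednra* exons and had 558 counts over the 6 libraries.

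*Ednrb* (ENSMUSG00000022122), the receptor shared by the endothelins, lies on chromosome 14 from 103814625 to 103844402, on the minus strand. It had the widest range among the well-detected members. In wildtype replicates 1, 2 and 3 it had 53.5, 85.7 and 143 CPM. In mutant replicates 1, 2 and 3 it had 40.5, 25.8 and 79.3 CPM. Wildtype replicate 3 was highest and mutant replicate 2 lowest, 5.54 times apart, and mutant replicate 3 lay above wildtype replicate 1. Means were 94.1 ± 45.3 CPM (SD, n = 3) under the wildtype label and 48.5 ± 27.6 CPM (SD, n = 3) under the mutant label. *Ednrb* was not called, at a log2 fold change of −0.95 (standard error 0.39, 95% interval −1.82 to −0.08). In edgeR's test its unadjusted p was 0.0344 and its adjusted p 0.282. The exact permutation test gave p = 0.2.

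The value of *Ednrb* depended on which libraries entered and on what was held constant. With the number of the titles as a replicate block the log2 fold change was −0.99 and the gene passed the threshold (edgeR's adjusted p = 0.00131, in a fit that called 5.6% of all genes). It was also called with that block and a correction for gene GC content and length (−0.98). The library numbers of the descriptions, used as the block in its place, gave −0.96 and no call (edgeR's adjusted p = 0.171, 0.295% of all genes called). Over the 17 alternative fits the adjusted p of *Ednrb* ran from 0.00131 to 0.975. Leaving out wildtype replicate 3 gave −0.52, leaving out mutant replicate 3 gave −1.50 and leaving out wildtype replicate 1 gave −1.24 (edgeR's adjusted p = 0.0762), with no call in these fits. The fit without wildtype replicate 1 called 9.45% of all genes. The share was 0.0109% with wildtype replicate 2 left out, 0.00721% with wildtype replicate 3 left out and 0.00364% with mutant replicate 3 left out. With mutant replicate 1 or 2 left out it was 0.00729% or 0.00728%.

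*Ednrb* and *Edn3* had the widest spread between libraries of the same label. The pooled standard deviation of log2 of CPM plus 0.5 was 0.76 for *Ednrb* and 0.53 for *Edn3*, against 0.22 for *Edn1*, 0.18 for *Ednra*, 0.18 for *Ece1* and 0.17 for *Ece2*. Over the 16655 genes whose mean reached 1 CPM the median of this value was 0.15, and 0.54% of those genes had a larger one than *Ednrb*. For *Ednra* 40.5% of genes had a larger one. Within the mutant label *Ednrb* differed by 3.07 times between the highest and lowest library, and *Ednra* by 1.02 times.

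**Figure D2:**
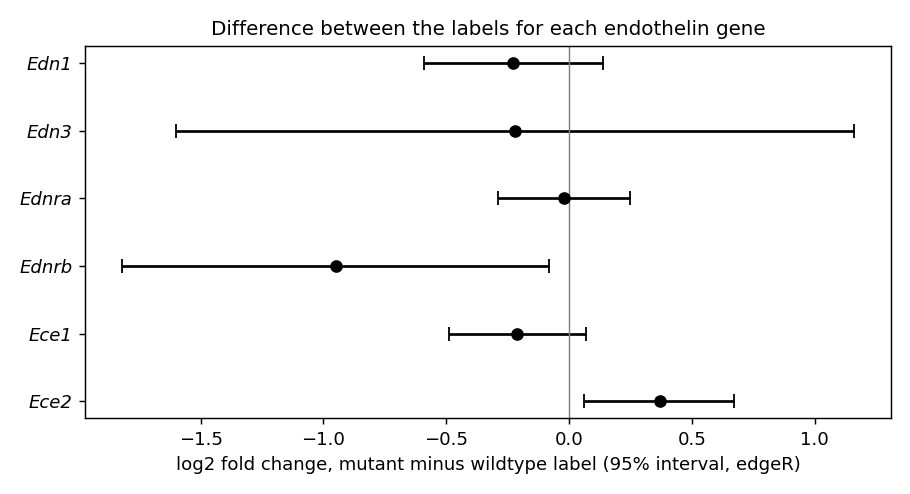
The horizontal axis is the log2 fold change, mutant label minus wildtype label, fitted by edgeR over all genes, with a point for each endothelin gene and bars for 95% intervals. The intervals of *Ednrb* (−1.82 to −0.08) and *Ece2* (0.06 to 0.67) leave out 0 before adjustment for the genes tested, and that of *Edn3* (−1.60 to 1.16) is the widest.

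Markers of heart muscle varied over the libraries together with *Ednrb*. All 15 of 15 genes of a myocardial list (*Myh6*, *Tnnt2*, *Actc1* and others) were detected in every library. Their mean log2 CPM, taken relative to the mean of the 6 libraries, was 0.03, 0.15 and 0.63 in wildtype replicates 1, 2 and 3. It was −0.29, −0.62 and 0.10 in mutant replicates 1, 2 and 3. Wildtype replicate 3 was highest and mutant replicate 2 lowest on this list too, the same ends as for *Ednrb*. The summed level of the list was 34700 to 51300 CPM under the wildtype label and 23800 to 34100 CPM under the mutant label. When this list mean was added to the fit as a covariate, *Ednrb* had a log2 fold change of 0.17 (adjusted p = 0.975 from edgeR's test, 0.0107% of all genes called), a value of the other sign. The covariate itself differed with the label, with 15 of 15 of its genes lower in value under the mutant label, so over 6 libraries this fit also takes up part of the difference between the labels, and the contributions of label and list cannot be told apart. The 10 endothelial markers, detected in every library, summed to 1060 to 1400 CPM under the wildtype label and 1150 to 1280 CPM under the mutant label. Their mean log2 CPM, on the same scale as above, was −0.22, 0.11 and 0.22 in wildtype replicates 1, 2 and 3. It was −0.10, −0.13 and 0.11 in mutant replicates 1, 2 and 3. The endothelial list was thus also highest in wildtype replicate 3, but it was lowest in wildtype replicate 1. The median log2 fold change of these 10 was −0.05. The smallest p among them was that of *Egfl7*, a secreted endothelial protein, which was higher in value under the mutant label (0.36, adjusted p = 0.243 from edgeR's test). *Emcn*, a marker of endocardium and veins, was next and lower in value (−0.55, adjusted p = 0.365 from edgeR's test). It had 1603, 2192 and 2575 counts in wildtype replicates 1, 2 and 3, against 1268, 1074 and 2055 in mutant replicates 1, 2 and 3. Its highest and lowest counts were in the same libraries as those of *Ednrb*. The part of these markers in the *Ednrb* values was not tested.

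The genes whose pattern was nearest to *Ednrb* were *Smpx* and *Clec4g*. Likeness was the root mean square difference of log2 CPM, centred on each gene's mean, over the 6 libraries. The search took in the 16650 other genes whose mean reached 1 CPM. *Smpx*, a small protein of striated muscle, differed from *Ednrb* by 0.166 on this scale. It had 175, 228 and 357 CPM in wildtype replicates 1, 2 and 3 and 122, 89.1 and 211 CPM in mutant replicates 1, 2 and 3. *Clec4g*, a lectin known from sinusoidal endothelium, differed by 0.167 at a mean of 1.99 CPM. The libraries ranked in the same order for *Smpx* and for *Clec4g* as for *Ednrb*. Being picked as the nearest of many candidates over 6 libraries, these matches are a description only.

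**Figure D3:**
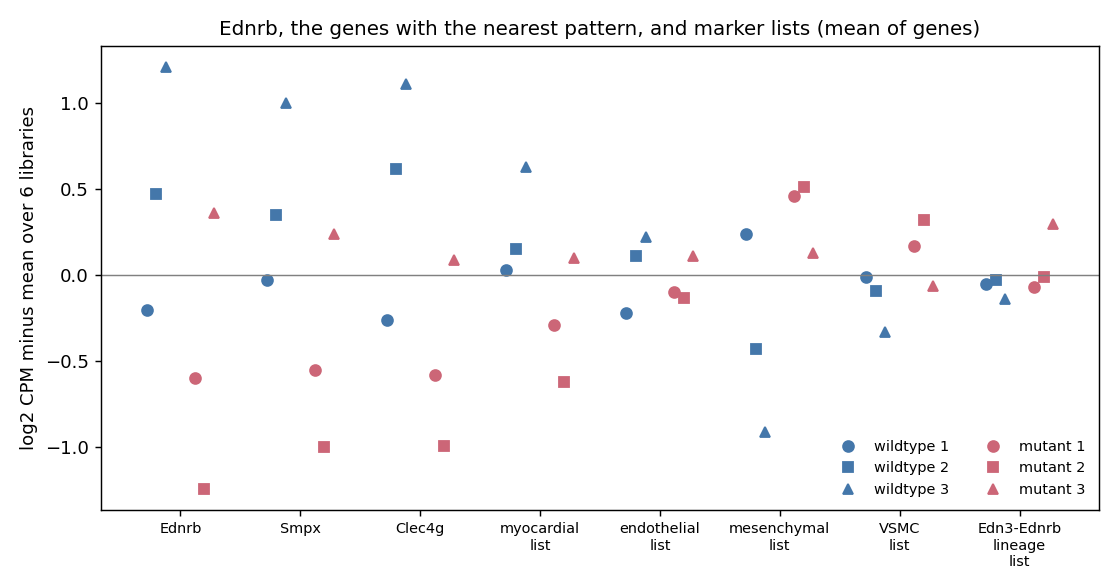
The axis is log2 CPM minus the mean of the 6 libraries, for *Ednrb*, the 2 genes with the nearest pattern, and the mean over genes of 5 lists, with 1 point per library. *Ednrb* runs from −1.24 in mutant replicate 2 to 1.21 in wildtype replicate 3, the myocardial list has the same ends (−0.62 and 0.63), and the mesenchymal list has them turned round (0.51 and −0.91). The endothelial list runs from −0.22 in wildtype replicate 1 to 0.22 in wildtype replicate 3.

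For *Edn1*, *Ednra*, *Ece1* and *Ece2* the nearest genes lay closer on this scale, which does not account for how much a gene varies. These members also varied less between libraries of the same label (pooled standard deviation 0.17 to 0.22, against 0.76 for *Ednrb*). The distances therefore do not show which member has the better match. *Ednra* was nearest to *Zmym4* (0.026), a zinc finger protein, and to *Atp1b2* (0.027), a sodium pump subunit. *Edn1* was nearest to Gm13212 (0.054) and Gm7618 (0.061), the latter an annotated pseudogene. *Ece1* was nearest to the pseudogene Gm18025 (0.021) and to *Abcb8* (0.025), a mitochondrial transporter. *Ece2* was nearest to Gm13305 (0.016) and *Taf1c* (0.037), a subunit of a factor for RNA polymerase I. Reads of pseudogenes can be shared with their parent genes, so those values are uncertain. *Edn3* was under 1 CPM on average and was not searched.

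The promoters of the receptors are shown as a description, and no link between their letters and the spread between libraries was tested. Each is the part of the RefSeq window (GRCm38.p6) before its start, without annotated exon bases, read 5′ to 3′ on the minus strand. Matches to the searched motifs are in capitals. The *Ednra* stretch is chr8:77724465-77724702 and the *Ednrb* stretch is chr14:103843702-103843951, which lies in an intron of a longer *Ednrb* transcript.
Ednra promoter: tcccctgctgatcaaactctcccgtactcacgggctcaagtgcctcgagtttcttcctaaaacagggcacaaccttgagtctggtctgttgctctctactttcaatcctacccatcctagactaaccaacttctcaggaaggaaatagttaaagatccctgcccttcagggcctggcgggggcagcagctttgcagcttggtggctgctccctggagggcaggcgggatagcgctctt
Ednrb promoter: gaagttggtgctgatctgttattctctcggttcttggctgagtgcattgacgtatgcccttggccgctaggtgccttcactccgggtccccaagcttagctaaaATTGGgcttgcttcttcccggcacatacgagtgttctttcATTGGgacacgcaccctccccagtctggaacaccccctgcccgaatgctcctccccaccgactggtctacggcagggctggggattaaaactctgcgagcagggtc
The motifs were searched on both strands. Besides those searched in *Edn1*, they were the letters TGGGAA of Rbpj, the DNA-binding partner of Notch, the letters ACAAAG of SOX factors, the letters TATAAA of core promoters, the letters GGGCGG of the GC box, and CCAAT. The *Ednrb* stretch held CCAAT on the opposite strand in 2 places, with first bases at −146 and −106 from the start, and the *Ednra* stretch held none of the 7 motifs. CCAAT was in 37.4% of the windows of all genes, which at 300 bases are longer than the stretches shown. TGGGAA was in 25.6% of the windows of all genes and in 1 of the 9 endothelin windows, at −229 from a downstream start of *Ece1*. GC content was 54.6% for the *Ednra* stretch and 56.8% for the *Ednrb* stretch. As in *Edn1*, the matches were not tested for binding.

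*Ece1* (ENSMUSG00000057530), the main endothelin converting enzyme of endothelium, lies on chromosome 4 from 137862237 to 137965229, on the plus strand. In wildtype replicates 1, 2 and 3 it had 209, 256 and 296 CPM. In mutant replicates 1, 2 and 3 it had 225, 210 and 223 CPM. The libraries labelled mutant were close together near the lowest wildtype library, replicate 1. Means were 253 ± 43.5 CPM (SD, n = 3) under the wildtype label and 220 ± 8.31 CPM (SD, n = 3) under the mutant label. For *Ece1* edgeR gave a log2 fold change of −0.21 with a standard error of 0.13 (95% interval −0.49 to 0.07, adjusted p = 0.442). Without wildtype replicate 1 it was −0.33 and called (adjusted p = 0.0482 from edgeR's test), in a fit that called 9.45% of all genes tested. It was −0.31 and called when the block on the title numbers was combined with the GC and length correction (adjusted p = 0.0297 from edgeR's test, 8.02% of all genes called). Its adjusted p ran from 0.0297 to 1 over the 17 alternative fits. Without wildtype replicate 3 it was −0.08 (edgeR's adjusted p = 0.843), and with the myocardial covariate 0.01.

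*Ece2* (ENSMUSG00000022842), a converting enzyme known from neural tissue, lies on chromosome 16 from 20629828 to 20646485, on the plus strand. It was the only member with a positive log2 fold change. Its levels were 11.05, 13.8 and 10.97 CPM in wildtype replicates 1, 2 and 3. They were 16.57, 16.14 and 13.53 CPM in mutant replicates 1, 2 and 3. The labels overlapped only through wildtype replicate 2, which lay just above mutant replicate 3. Means were 11.9 ± 1.61 CPM (SD, n = 3) and 15.4 ± 1.65 CPM (SD, n = 3) under the wildtype and mutant labels. For *Ece2* edgeR gave a log2 fold change of 0.37 with a standard error of 0.14 (95% interval 0.06 to 0.67, unadjusted p = 0.0228 and adjusted p = 0.252), and the exact permutation test gave p = 0.2. It kept its sign in all 17 alternative fits (0.20 to 0.49) and was called in 0 of them. An overlapping gene on the same strand, Gm49333, covers 57.5% of the exon bases of *Ece2* in the annotation and is not listed in the count table. How reads on shared exons were assigned is not given in the sources used here, so the level of *Ece2* is uncertain.

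Ratios of 2 members within a library were compared next, because they do not depend on scaling between libraries. *Ece1* over *Ece2* was 18.9, 18.5 and 26.9 in wildtype replicates 1, 2 and 3. The same ratio was 13.6, 13.0 and 16.5 in mutant replicates 1, 2 and 3. Every library labelled mutant lay below every library labelled wildtype. For comparison, the labels did not overlap for 19.6% of all single genes. The log2 ratio was 4.40 ± 0.30 (SD, n = 3) under the wildtype label and 3.84 ± 0.18 (SD, n = 3) under the mutant label, a difference of −0.56. The two-sided exact permutation test gave p = 0.1, the smallest that 3 against 3 allows, and adjusted p = 0.3 over the 3 ratios tested. Because Gm49333 covers 57.5% of the exon bases of *Ece2*, this ratio is as uncertain as the level of *Ece2*.

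*Ednra* over *Ednrb* was 1.03, 0.454 and 0.317 in wildtype replicates 1, 2 and 3, against 1.14, 1.79 and 0.573 in mutant replicates 1, 2 and 3. The libraries of the labels overlapped. The log2 ratio was −0.92 ± 0.87 (SD, n = 3) under the wildtype label and 0.07 ± 0.83 (SD, n = 3) under the mutant label (exact permutation test, p = 0.2, adjusted p = 0.3). Per exon length, *Ednrb* made up 69.8% ± 12.9 (SD, n = 3) of the sum of both receptors under the wildtype label and 54.6% ± 13.8 (SD, n = 3) under the mutant label. Its share ran from 41.7% in mutant replicate 2 to 80.2% in wildtype replicate 3. These shares rest on the length used. Per longest transcript the mean of *Ednra* over the 6 libraries was 12.7 in place of 8.43 RPKM, and that of *Ednrb* 17.4 in place of 16.7 RPKM, which lowers the share of *Ednrb*. *Edn1* over *Edn3* had a log2 ratio of 4.35 ± 0.78 (SD, n = 3) and 4.39 ± 1.14 (SD, n = 3) under the wildtype and mutant labels (exact permutation test, p = 1), with *Edn3* at 7 to 39 counts.

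**Figure D4:**
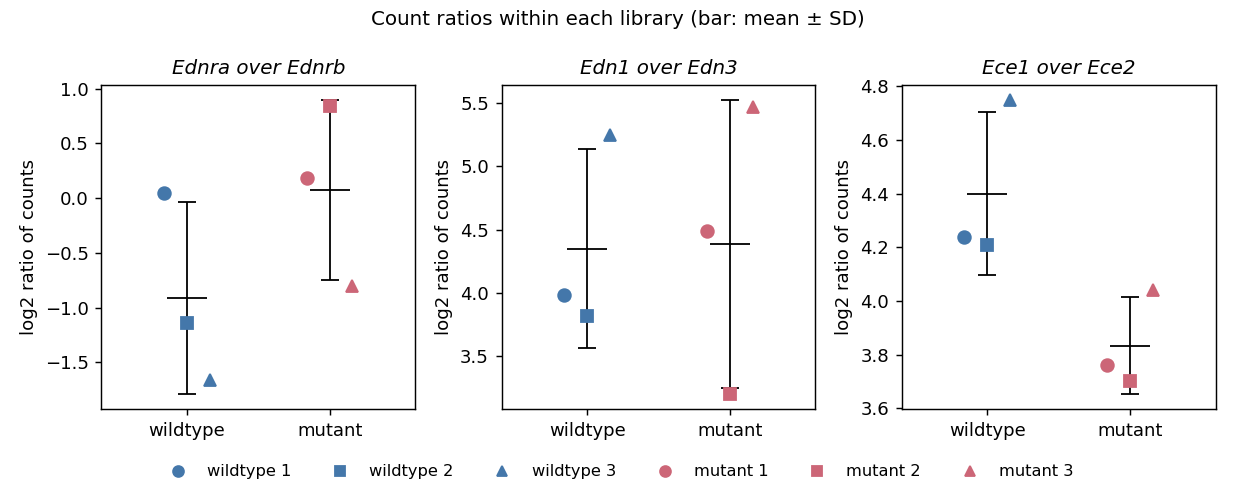
Each panel plots the log2 ratio of the counts of 2 endothelin genes in each library, with a bar for mean ± SD of the label. *Ece1* over *Ece2* is between 3.70 and 4.04 in the libraries labelled mutant and between 4.21 and 4.75 in those labelled wildtype, while the other panels overlap. The labels also did not overlap for 19.6% of all single genes.

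Levels were compared between genes per length, as RPKM (CPM divided by the exon length in kilobases). *Ece1* was highest in every library, at 39.4 to 55.8 RPKM, above every value of the other members. *Ednrb* followed at 6.05 to 33.5 RPKM and *Ednra* at 7.10 to 10.1 RPKM, and this pair overlapped, with *Ednra* the higher in mutant replicate 2. *Edn1* was at 4.08 to 6.28 RPKM, below every value of *Ednra*. *Ece2* was at 2.15 to 3.24 RPKM and *Edn3* at 0.0516 to 0.240 RPKM, the lowest in every library. With the length of the longest transcript in place of all exons, the mean of *Ednra* over the 6 libraries was 12.7 in place of 8.43 RPKM and that of *Ece2* 3.97 in place of 2.68 RPKM. *Ednra* was then above *Ednrb* in 3 libraries and *Ece2* above *Edn1* in 2, so these orders rest on the length used.

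**Figure D5:**
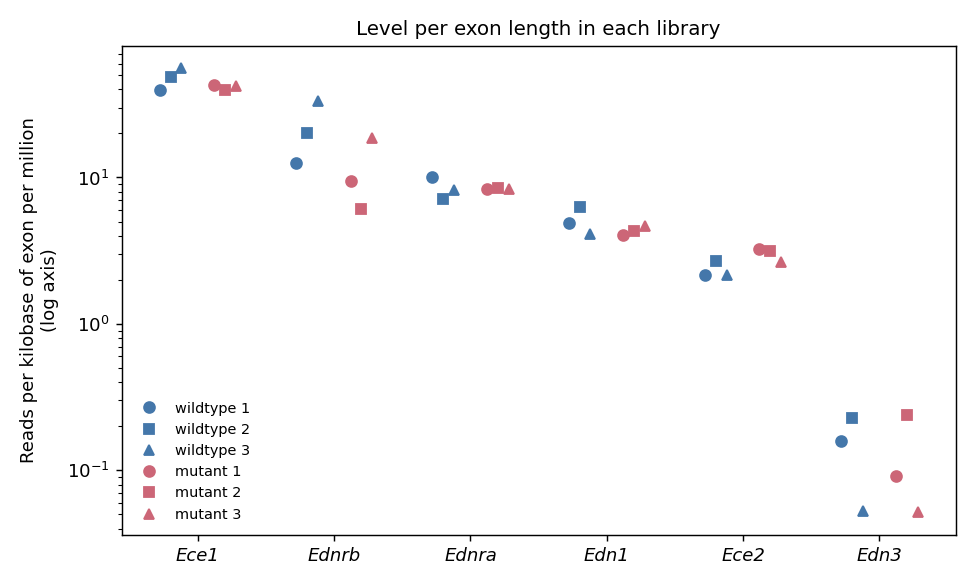
The level per exon length (RPKM, log axis) of each endothelin gene is plotted with 1 point per library, genes ordered by their mean. *Ece1* (39.4 to 55.8) is above all, *Ednrb* and *Ednra* overlap, and *Edn3* (0.0516 to 0.240) is lowest.

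Other genes of the peptide's processing and breakdown were read from a list of 11. None was called over all genes (0 genes by edgeR, 0 by limma-voom). The unadjusted p of edgeR was under 0.05 for 2 higher and 2 lower, beside 8.23% and 7.83% of all genes. DESeq2's Wald test called *Pcsk6*, a proprotein convertase (log2 fold change −0.54 from edgeR, adjusted p = 0.194 from edgeR and 0.041 from DESeq2). *Mme* (neprilysin), which breaks down endothelins and other peptides, had 18.0 ± 2.91 CPM (SD, n = 3) under the wildtype label and 12.8 ± 1.55 CPM (SD, n = 3) under the mutant label. The log2 fold change of *Mme* was −0.49 (adjusted p = 0.203 from edgeR's test), and its labels did not overlap. *Furin*, which trims endothelin precursors, had log2 fold change 0.21 (adjusted p = 0.302 from edgeR's test). *Ecel1*, a relative of the converting enzymes, had 1.40 (adjusted p = 0.299). The third ligand gene, *Edn2*, was as scarce as *Edn3*, with counts of 31, 46 and 18 in wildtype replicates 1, 2 and 3, against 24, 22 and 13 in mutant replicates 1, 2 and 3. The labels did not overlap for 5 of the 11 genes, beside 19.6% of all genes, and the median log2 fold change of the list was −0.32.

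Of 20 genes that couple the receptors to calcium release or shut them down, 13 had positive and 7 negative log2 fold changes, with a median of 0.05. None was called (0 genes by edgeR, DESeq2 or limma-voom). Beside 16.1% of all genes, 3 of these 20 had an unadjusted p under 0.05 in edgeR's test. These were *Plcb1* (0.48, adjusted p = 0.194 from edgeR's test) and *Plcb3* (0.28, adjusted p = 0.287), phospholipases that act below Gq, and *Rgs5* (0.83, adjusted p = 0.291), a pericyte gene that ends G protein signals. The G protein subunits *Gnaq* (0.06) and *Gna11* (0.08) differed little in value, with 60.8 ± 1.98 against 58.2 ± 6.10 CPM and 85.1 ± 3.94 against 80.7 ± 2.54 CPM (SD, n = 3 each, mutant label first).

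Genes that depend on Edn1 and Ednra in cranial neural crest were read next. Of 12 listed, 11 were tested, 10 with positive and 1 with a negative log2 fold change (median 0.40), and *Gbx2* was left out with 5 counts. None was called by edgeR (0 genes) or limma-voom, and 1 had an unadjusted p under 0.05, beside 16.1% of all genes. *Msx1*, a homeobox gene of mesenchyme, had 847, 501 and 307 counts in wildtype replicates 1, 2 and 3, against 1168, 973 and 663 counts in mutant replicates 1, 2 and 3. Its log2 fold change was 0.84 (adjusted p = 0.197 from edgeR's test), and DESeq2's Wald test called it (adjusted p = 0.0283). *Hand2*, a target in the pharyngeal arches, had 75.1 ± 6.68 and 76.9 ± 6.10 CPM (SD, n = 3 each), a log2 fold change of 0.03. The jaw genes *Dlx5*, *Dlx6* and *Dlx3* had at most 26 counts in any library. *Nkx3-2* had 1, 2 and 1 counts in wildtype replicates 1, 2 and 3, at or under the floor, and 7, 7 and 2 in mutant replicates 1, 2 and 3. A list of mesenchymal markers had a median log2 fold change of 0.60, with 10 of 10 positive and summed levels of 4700 to 9200 CPM under the wildtype label and 8560 to 11100 CPM under the mutant label. Their part in the *Msx1* value was not tested.

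Markers of the neural crest lineages that need Edn3 and Ednrb differed widely in level. Of 13 listed, 12 were tested, and *Foxd3* had no entry in the table. Positive log2 fold changes were found for 9 and negative ones for 3 (median 0.31). None was called (0 genes by edgeR, DESeq2 or limma-voom). Beside 16.1% of all genes, 1 of these 12 had an unadjusted p under 0.05 in edgeR's test. That gene was *Sox10*, the master factor of neural crest glia and melanocytes, with 29, 14 and 20 counts in wildtype replicates 1, 2 and 3, against 33, 31 and 47 in mutant replicates 1, 2 and 3. Its log2 fold change was 0.85 (adjusted p = 0.31 from edgeR's test). *Ret*, the enteric neuron receptor, had 0.89 (adjusted p = 0.386), and *Erbb3*, a glial growth factor receptor, 0.37 (adjusted p = 0.384). *Dct*, a melanocyte enzyme, had 50, 58 and 68 counts in wildtype replicates 1, 2 and 3, against 19, 14 and 189 in mutant replicates 1, 2 and 3. *Pax3* was at 13 counts in mutant replicate 3 and at 1 or 0 in the other libraries. Mutant replicate 3 was thus the highest library for *Sox10*, *Dct* and *Pax3*, and it had the highest *Ednrb* level of its label. The values of *Sox10* in the wildtype-labelled libraries ran in a different order from those of *Ednrb*.

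The remaining marker lists were read for what else moved with the labels. All 15 myocardial genes were lower under the mutant label in value (median −0.53), as were 8 of 8 blood genes (median −0.56). Of 10 smooth muscle (VSMC) genes 8 were higher in value (median 0.21), and of 8 neuronal genes 5 (median 0.14). Of 10 endothelial genes 9 were lower in value (median −0.05), and of 7 epicardial genes 5 (median −0.07). EdgeR and limma-voom called none of these (0 genes in each list), and an unadjusted p under 0.05 was found for 12 myocardial, 5 blood, 5 VSMC, 8 mesenchymal, 2 neuronal, 1 endothelial and 0 epicardial genes, beside 16.1% of all genes. DESeq2's Wald test called 7 myocardial, 1 blood, 2 VSMC, 2 mesenchymal, 1 neuronal and 0 endothelial or epicardial genes, beside 4.21% of all genes. The nearest to the threshold were *Tubb3* (neuronal tubulin, 1.29, adjusted p = 0.128 from edgeR's test) and *Pln* (phospholamban, −0.60, adjusted p = 0.153).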

How the data were processed

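Bulk RNA-Seq was made from 6 pools of E13.5 OFT. Per the labels and the study's methods, the authors made TruSeq Stranded Total RNA libraries with Ribo-Zero depletion, sequenced 50 bp read pairs, trimmed the start of read 1, aligned to mm10 with TopHat2 2.1.0 and Bowtie2, and counted reads on exons with GenomicAlignments. The deposited values are raw counts per gene. The annotation release, the use of strand and the treatment of overlapping genes are not given in the sources used here. The smallest sum of a listed gene is 5 counts.

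Genes with 5 or fewer reads over the libraries were left out, as in the study, and 28157 were tested in R 4.3.3 with edgeR 4.0.16 (TMM, quasi-likelihood test, Benjamini-Hochberg adjustment, called at 0.05). The standard error is the log2 fold change over the root of F. DESeq2 1.42.0 and limma 3.58.1 (voom) were alternatives, with 17 fits in all. Permutation tests used log2 of CPM plus 0.5, and ratios used counts plus 0.5. Positions and exon lengths are from GENCODE M21 for mm10, which holds 28723 of the 28777 identifiers, and promoters from RefSeq GRCm38.p6, in which all 6 genes matched, with 9 windows. The correction for GC content and length fitted splines to each library. The code was tested on simulated counts.

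Titles and descriptions disagree on which library is wildtype replicate 2 and which is 3, and the numbers of the titles are used. Same-numbered libraries of the titles deviated together from their group means, with correlations over 16655 genes of 0.101, 0.152 and 0.458, although the first was 0.096 with a prior count of 2. With the numbers of the descriptions they were 0.101, −0.487 and −0.118. The labels do not say what the number marks, and these values were weighed with the calls of the blocked fits already known, so the block is an alternative only.

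The 6 genes, the lists and the motifs were chosen with earlier results of these data known. Named genes are the members, *Nos3* and *Notch1*, the genes of the 3 endothelin lists, in each other list the genes called or with the 3 smallest p, and 2 genes nearest to each member with a mean of at least 1 CPM. *Gnaq*, *Gna11* and the symbols given as examples of the myocardial list fall outside this rule and were chosen after their values were seen.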

Additional observations from a re-analysis of the deposited data

How the results depend on the processing

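Each alternative tool (DESeq2, limma-voom), scaling (size factors of DESeq2, or total counts alone) and filter (filterByExpr, or none) called 0 of the 6 genes, as did the correction for GC content and length, the myocardial covariate and the block on the description numbers. The replicate block on the title numbers called 1 (*Ednrb*, −0.99), and that block with the correction called 2 (*Ednrb*, −0.98, and *Ece1*, −0.31). With 1 library left out, 0 to 1 were called. The log2 fold change of *Ece1* then ran from −0.33 to −0.08, that of *Ednrb* from −1.50 to −0.52, that of *Ednra* from −0.13 to 0.13 and that of *Edn3* from −1.04 to 0.24. Signs turned for *Ednrb* (0.17) and *Ece1* (0.01) with the myocardial covariate, and for *Ednra* with scaling by total counts (0.08, and 0.10 as the difference in the exact test). That scaling shifts the median of all genes to 0.114. With the covariate *Edn3* was at −1.98 and not called. The cause was not tested.

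Over all genes the test called 6, DESeq2 749 (410 higher, 339 lower), the block on the title numbers 1577 (895 higher, 682 lower), the block on the description numbers 83, the block with the correction 2257 (910 higher, 1347 lower), the correction alone 4 and the covariate 3. Without wildtype replicate 1 it called 2593, and without each other library 1 to 3.

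The lists held 11 accessory, 20 coupling, 12 downstream, 13 lineage, 10 endothelial and 10 VSMC genes. They also held 10 mesenchymal, 15 myocardial, 7 epicardial, 8 neuronal and 8 blood genes. Of all genes, DESeq2 called 4.21%, the block on the title numbers 5.6% and that on the description numbers 0.295%. The block with the correction called 8.02%, and the fit without wildtype replicate 1 called 9.45%. In the lists DESeq2 called 1 accessory, 1 downstream, 2 VSMC, 2 mesenchymal, 7 myocardial, 1 neuronal and 1 blood gene. The replicate block on the title numbers called 2 accessory, 2 coupling, 1 downstream, 1 endothelial, 4 VSMC, 9 mesenchymal, 12 myocardial, 2 neuronal and 2 blood genes, and the block on the description numbers 1 downstream, 1 mesenchymal and 1 neuronal gene. The block with the correction called 3 accessory, 3 coupling, 1 downstream, 2 endothelial, 4 VSMC, 10 mesenchymal, 13 myocardial, 1 epicardial, 2 neuronal and 4 blood genes. With 1 library left out the counts ran from 0 to 2 for coupling and downstream genes, 0 to 1 for lineage, endothelial, epicardial and neuronal genes, 0 to 3 for VSMC, 0 to 10 for mesenchymal, 0 to 9 for myocardial and 0 to 6 for blood genes, the upper values without wildtype replicate 1. Per longest transcript the levels were 12.7 for *Ednra* and 3.97 for *Ece2*. Adding 1 to the counts in place of 0.5 left the 3 ratios within the spread between libraries.

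Depth limits *Edn2*, *Sox10*, *Pax3* and *Edn3*, which had few counts, although libraries of the same label also differed beyond counting error for *Edn3*.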
